A study of Mus musculus with 10 samples.

Results

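These results describe the regions of open chromatin that were called in the cochlea of newborn mice at postnatal day 2 (P2) and at neither later age studied. Any peaks of the 3 deposited lists (P2, P5 and P8) sharing 1 bp or more were joined into one region, and a region was kept when it held a P2 peak and no P5 or P8 peak. The regions were thus chosen by the peak calls themselves, so their calls and ranks are given as a description. The rule left 10283 of 64911 regions, which is 15.8% of all regions and 19.8% of the 51910 regions that held a P2 peak. In the text, "P2-only" means this and nothing more: a region without a later peak may still have been open at P5 or P8, and for 405 of the regions the wider input peak did overlap a later input peak. Of the P2-only regions, 10275 held 1 peak and 8 held 2.

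The tissue was the dissected cochlea of CD1 mice, an outbred stock, of which 3 were taken on day 2 after birth, 3 on day 5 and 4 on day 8, with no treatment or altered genotype in the labels. Both cochleae of an animal were combined and profiled by ATAC-seq, in which a transposase cuts and tags accessible DNA. No sort for a cell type is described, so each list averages over all cells of the dissection, and fewer cells of a type cannot be told apart from less accessible DNA per cell. One list was given per age, with no list per animal. The P2 list was the longest, with 52085 peaks, against 47683 for P5 and 43878 for P8. Its lowest ranking value was also the highest of the 3, at 19.5 on the −log10 p-value scale, against 13.5 and 11.4, and how the thresholds compare across lists is not known. With 1 list per age no difference between ages had a replicate check, and no test was run; intervals are Wilson 95% intervals and cover counting error only.

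In the first days after birth the mouse cochlea is still maturing: hair cells refine their bundles and synapses, the greater epithelial ridge lays down the tectorial membrane, and Schwann cells begin to wrap the axons of spiral ganglion neurons. Open chromatin marks promoters and distal enhancers. Promoters with many CpG dinucleotides tend to be open in most cells and at most ages, whereas distal enhancers tend to be used in particular cells and for limited periods.

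P2-only regions overlapped 716 of the 32851 promoters in the RefSeq table (assembly GRCm38.p6, the same build as the lists' mm10; 300 bp each, from 250 bp before to 50 bp after a start). This was 5.57% of the 12864 promoters that overlapped regions of 1 class holding a P2 peak. The 8 promoters below were chosen after their values were seen. Each overlapped a P2-only region with no P5 or P8 peak within 1 kb. No other listed start of the gene was open at a later age. They are examples from the 338 protein-coding genes that met these conditions, and not the highest-ranked of them. Each is given as the 250 bases before the start, 5′ to 3′ on the gene's strand. All 250 lay inside the P2-only region except at Neurod4 (226) and Crabp1 (220). Capitals mark matches on either strand to any of 10 motifs. They are TATAAA (the TATA box), CCAAT (bound by NF-Y), GGGCGG (the GC box of Sp factors), TGACTCA (activator protein 1), TGACGTCA (the cyclic AMP response element), ACAAAG (Sox factors) and AGGTCA (the half-site of nuclear receptors). The others are CACGTG (Myc), CAGCTG (proneural and myogenic factors) and CACCTG (Snail and Zeb factors), which share the E-box form CANNTG.

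Tgfbi: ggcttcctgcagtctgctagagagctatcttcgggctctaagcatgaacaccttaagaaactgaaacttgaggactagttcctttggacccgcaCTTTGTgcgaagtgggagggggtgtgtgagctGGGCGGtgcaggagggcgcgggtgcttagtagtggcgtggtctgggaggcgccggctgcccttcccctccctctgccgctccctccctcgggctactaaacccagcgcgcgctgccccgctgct
Esrrb: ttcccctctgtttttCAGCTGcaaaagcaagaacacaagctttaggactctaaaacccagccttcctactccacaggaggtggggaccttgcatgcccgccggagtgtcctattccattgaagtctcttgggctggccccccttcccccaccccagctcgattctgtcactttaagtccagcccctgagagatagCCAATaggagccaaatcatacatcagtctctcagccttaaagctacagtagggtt
Neurod4: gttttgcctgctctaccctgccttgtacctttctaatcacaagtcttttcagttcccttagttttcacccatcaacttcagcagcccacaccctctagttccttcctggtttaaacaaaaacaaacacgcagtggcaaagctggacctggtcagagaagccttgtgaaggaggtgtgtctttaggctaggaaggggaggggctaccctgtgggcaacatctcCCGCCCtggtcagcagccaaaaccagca
Grik2: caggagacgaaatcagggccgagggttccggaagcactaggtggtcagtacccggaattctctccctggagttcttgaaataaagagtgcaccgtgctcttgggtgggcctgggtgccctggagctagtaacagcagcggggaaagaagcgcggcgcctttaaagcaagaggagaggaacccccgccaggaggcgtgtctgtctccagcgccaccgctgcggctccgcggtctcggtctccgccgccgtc
Htr7: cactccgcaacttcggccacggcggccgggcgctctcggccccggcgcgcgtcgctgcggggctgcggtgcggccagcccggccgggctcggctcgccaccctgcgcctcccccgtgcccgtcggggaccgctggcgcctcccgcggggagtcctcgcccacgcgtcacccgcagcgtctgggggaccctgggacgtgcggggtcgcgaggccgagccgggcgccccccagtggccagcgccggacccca
Tecta: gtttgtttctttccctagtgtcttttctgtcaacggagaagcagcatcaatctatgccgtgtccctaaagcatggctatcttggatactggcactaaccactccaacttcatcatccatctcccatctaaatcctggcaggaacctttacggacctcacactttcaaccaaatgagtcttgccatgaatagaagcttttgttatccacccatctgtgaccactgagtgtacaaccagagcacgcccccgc
Crabp1: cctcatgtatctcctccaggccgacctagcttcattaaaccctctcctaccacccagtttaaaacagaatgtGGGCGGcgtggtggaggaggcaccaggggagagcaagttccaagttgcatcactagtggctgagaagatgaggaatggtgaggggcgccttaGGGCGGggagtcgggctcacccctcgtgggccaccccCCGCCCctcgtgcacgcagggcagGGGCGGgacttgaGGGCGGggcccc
Epha10: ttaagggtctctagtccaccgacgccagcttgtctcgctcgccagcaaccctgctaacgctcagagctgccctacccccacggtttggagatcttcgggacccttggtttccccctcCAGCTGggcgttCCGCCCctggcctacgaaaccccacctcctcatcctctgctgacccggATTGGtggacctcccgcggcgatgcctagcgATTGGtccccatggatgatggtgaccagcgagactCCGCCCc

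Tgfbi (chr13:56609336-56609585, plus strand) encodes a secreted matrix protein induced by TGF-beta, and Esrrb (chr12:86421394-86421643, plus strand) a nuclear receptor of the marginal cells of the stria vascularis. Their P2-only regions ranked highest of the 8, at percentiles 64.1 and 63.6 of the P2 list, where 100 is the strongest peak. Neurod4 (chr10:130280255-130280504, minus strand), a proneural transcription factor, stood at percentile 50.8. Grik2 (chr10:49788755-49789004, minus strand), a kainate receptor subunit, stood at 48.1, and the nearest P5 or P8 peak lay 803 kb away. Htr7 (chr19:36057361-36057610, minus strand), a serotonin receptor, stood at 34.5, and Tecta (chr9:42401691-42401940, minus strand), the tectorial membrane protein alpha-tectorin, at 33.1. Crabp1 (chr9:54764498-54764747, plus strand), a binding protein for retinoic acid, stood at 20.1 and Epha10 (chr4:124881535-124881784, plus strand), a receptor of the Eph family, at 15.4. All 8 were thus of middle or low rank. Neurod4, Grik2, Htr7, Crabp1 and Epha10 had no region at all at P5 or P8. The stretches differ in composition: 82.0% of the Htr7 bases are G or C with 41 CpG, against 47.2% and 5 CpG for Tecta. GGGCGG matched 5 times in Crabp1 and not at all in Esrrb, Grik2, Htr7 or Tecta; no match says only that those letters are not in the window.

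Over all 716 P2-only promoters the composition lay between that of promoters open at all ages and that of promoters without any region. The median P2-only promoter had 59.7% GC and 13 CpG in its 300 bp. The 11424 promoters in regions called at all ages had 62.3% and 22 CpG, and the 19545 with no region had 48.0% and 3 CpG. Promoters called at P5 only (95) or P8 only (194) had fewer CpG than the P2-only ones, with medians of 6 and 7. Promoters called at P2 and one later age were like the P2-only ones, with 57.7% GC and 12 CpG for P2 and P5 and 59.3% and 13 CpG for P2 and P8. Leaving out P2-only promoters with a P5 or P8 peak within 1 kb left 598, with 59.7% GC and 12 CpG.

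GGGCGG occurred in 51.1% (47.5 to 54.8) of P2-only promoters, in 47.6% (43.0 to 52.2) at P2 and P5, in 50.4% (44.4 to 56.3) at P2 and P8, in 68.7% (67.9 to 69.6) at all ages and in 35.7% of all promoters. TATAAA occurred in 8.94% (7.06 to 11.3) of P2-only promoters, in 8.77% at P2 and P5 and in 7.09% at P2 and P8. It was in 5.69% at all ages and 13.6% of all promoters. CACCTG was found in 25.8% (22.8 to 29.2), against 17.4% (16.7 to 18.1) at all ages and 20.2% of all promoters, and in 24.6% of promoters called at P2 and P5. CAGCTG was found in 19.7%, against 14.8% at all ages and 16.3% of all promoters. This was not particular to P2-only promoters. The share was 23.0% at P2 and P5, 17.9% at P2 and P8, 26.3% at P5 only and 22.2% at P8 only. TGACTCA stood at 5.73% (4.25 to 7.68), against 5.20% of all promoters, so its interval covered the overall share. TGACGTCA was in 0.838% (0.385 to 1.82), against 1.79% of all promoters and 3.55% at all ages. For the remaining 4 motifs, CCAAT was in 30.2% of P2-only promoters against 37.4% of all, CACGTG in 9.36% against 7.15%, ACAAAG in 16.5% against 18.7%, and AGGTCA in 13.4% against 16.3%. In the same order, these 4 were in 30.0%, 4.61%, 18.2% and 12.7% at P2 and P5. At P2 and P8 they were in 30.6%, 8.96%, 14.9% and 14.9%.

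The 716 promoters belonged to 657 genes, 468 of them protein-coding. In 386 of the 468 the P2-only region had no P5 or P8 peak within 1 kb, and in 338 of these no other listed start was open at a later age. For 103 of the 386 the gene had no region at P5 or P8. The regions at the 386 promoters had a median P2 percentile of 21.6. The highest of them outside the 8 shown were those of Arvcf, a catenin at cell junctions, at 73.5; Cartpt, a neuropeptide precursor, at 65.9; Mfsd2a, a lipid transporter, at 60.4; and Ntn3, a netrin, at 58.3. Arvcf has 2 other starts that were open at a later age. Genes of neuronal signalling further down the order were Grpr at 51.7, a peptide receptor, Grin1 at 49.3, the obligate subunit of NMDA receptors, and Kcnh2 at 48.1, a potassium channel. The promoter of Hes6, a Notch pathway regulator, was P2-only at 59.5, with a later peak 469 bp away.

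Away from promoters, P2-only regions were mostly distal. The middle of 1636 regions, or 15.9% (15.2 to 16.6), lay within 1 kb of either end of an annotated gene, against 37.4% (36.8 to 37.9) of the 32681 regions called at all ages. Regions called only at P5 or only at P8 lay there less often still, at 8.74% (7.92 to 9.64) and 10.996% (10.1 to 11.9). Measured to annotated starts with their strand (9945 P2-only regions, since the start table lacks chromosome 18), 5.25% (4.83 to 5.70) of P2-only regions lay within 500 bp, against 27.0% at all ages, 1.32% at P5 only and 2.59% at P8 only. The median distance to a start was 39.4 kb, against 19.0 kb at all ages, 62.0 kb at P5 only and 47.5 kb at P8 only. Regions called at P2 and P5 had similar shares, with 4.70% near starts and 14.5% near gene ends, and those called at P2 and P8 had 8.84% and 20.3%. The share near starts was thus higher at P2 only than at either other single age and lower than at all ages, and it was not particular to P2-only regions. Protein-coding genes contained 55.8% (54.9 to 56.8) of P2-only regions and 52.6% of those at all ages. Within genes of known strand, 16.8% of the regions lay in the first of 5 equal parts of the gene and 20.1% to 21.5% in each of the others; of regions at all ages 20.1% lay in the first.

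**Figure D1:**
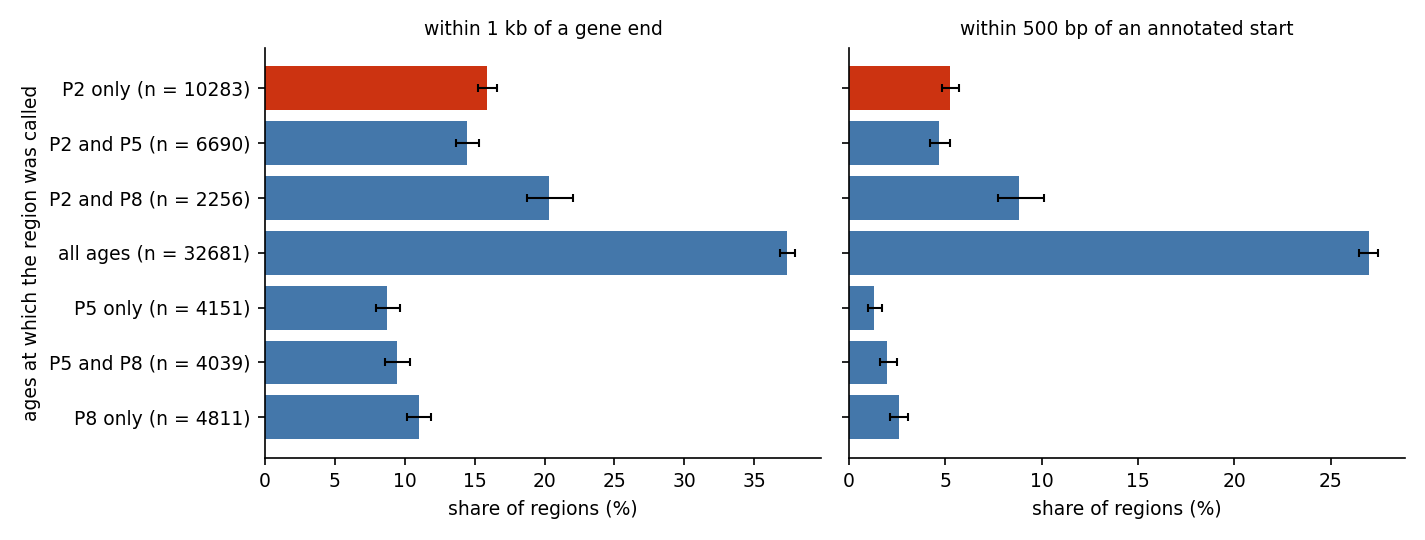
Share of regions (percent, with Wilson 95% intervals) within 1 kb of a gene end (left) and within 500 bp of an annotated start (right), for each combination of ages at which a region was called; the right panel leaves out chromosome 18. P2-only regions (red) reach 15.9% and 5.25%, below regions called at all ages and above those called only at P5 or only at P8.

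The reverse view gives the background for the gene counts that follow. Of the 15272 P2 regions within 1 kb of a gene end 10.7% were P2-only, and of the 36638 farther away 23.6%. Among chromosomes with over 100 P2 regions the share ranged from 18.0% (16.7 to 19.3) on chromosome 7 to 21.4% (19.8 to 23.2) on chromosome 15, so no chromosome held a large excess.

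P2-only regions were weak peaks of the P2 list. Their median percentile was 16.7, with the middle 50% of them between 7.62 and 29.6. In all, 503 ranked above percentile 50, 39 above 75 and 7 above 90. A low rank was not particular to them. The median was 14.1 in the P5 list for P5-only regions and 16.1 in the P8 list for P8-only regions. Regions called at P2 and P5 had a median of 35.0 in the P2 list, and those at P2 and P8 26.0. In the lowest of 10 equal bins of the P2 list 63.3% of regions were P2-only, in the next 50.3%, and in the highest 0.134%. The ranking value and the discovery rate restate this order. The median ranking value of P2-only peaks was 29.4, against 73.6 for the other P2 peaks. An irreproducible discovery rate of at most 0.01 was reached by 55.0% of them, against 91.8%. The input peaks were narrower, with a median of 446 and 455 bp, against 621 and 637 bp.

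**Figure D2:**
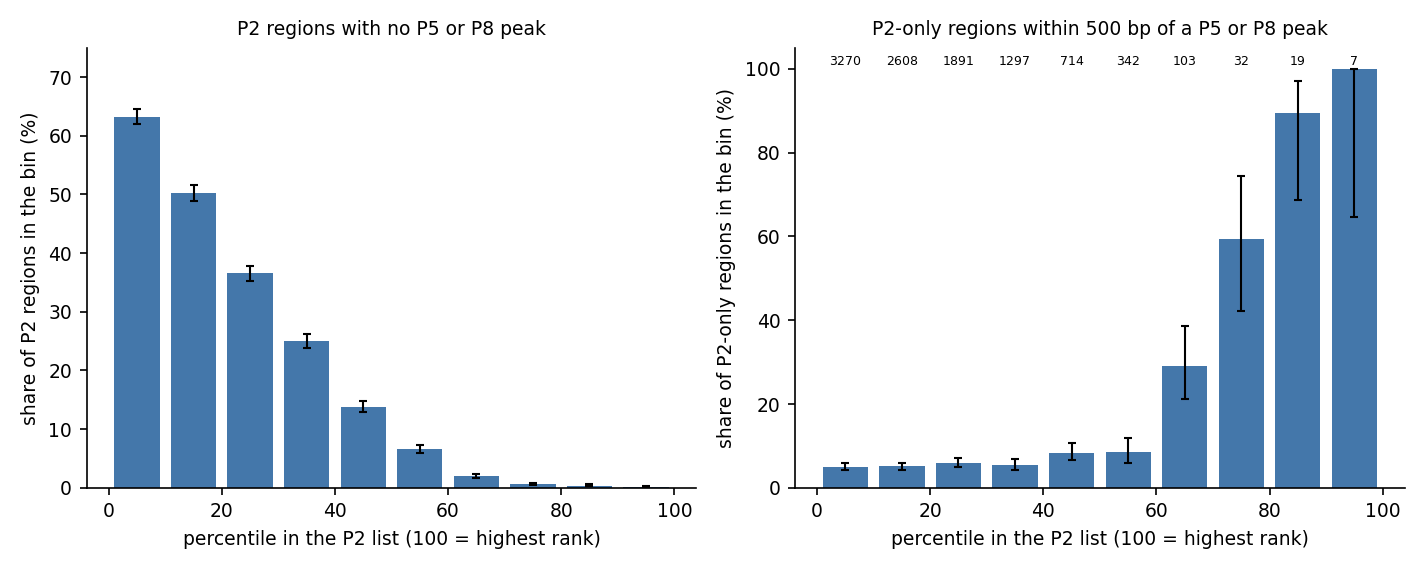
P2 regions in 10 bins of within-list percentile. Left, the share of each bin's P2 regions that were P2-only falls from 63.3% to 0.134%; right, the share of each bin's P2-only regions (their number above each bar) within 500 bp of a P5 or P8 peak reaches 100% of the 7 in the highest bin; bars on the columns are Wilson 95% intervals.

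The strongest P2-only regions stood directly beside peaks of the later ages. The region at Dnpep, an aspartyl aminopeptidase (chr1:75316827-75317325, inside the gene and 579 bp from its end), was the third strongest of the whole P2 list, at percentile 99.99. Only 96 bp from it lay a region called at all ages, whose P8 peak stood at percentile 99.95 of the P8 list. Snn (chr16:11066741-11067239) followed at 98.6, with a later peak 255 bp away. Phf12 (chr11:77981591-77982089), a chromatin protein, stood at 93.8 with a peak 216 bp away. At Eif1, a translation initiation factor (chr11:100320235-100320733, percentile 91.8), the neighbour 55 bp away was called at P5 and P8 and not at P2. At Mertk, a receptor for the uptake of dead cells (chr2:128698587-128699085, percentile 87.0), the later peak lay 58 bp away. Of the 39 regions above percentile 75, 35 had a P5 or P8 peak within 500 bp and 38 within 1 kb. The wide input peaks of all 39 overlapped a wide P5 or P8 input peak, and 31 lay within 1 kb of a gene end.

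Such neighbours were otherwise uncommon. Of all P2-only regions 642 (6.24%) had a P5 or P8 peak within 500 bp and 1139 (11.1%) within 1 kb, and the median distance was 8.21 kb. The neighbour within 500 bp lay in a region that also held a P2 peak in 427 of the 642, and in one without a P2 peak in 215. Wide input peaks overlapped for 405 regions, or 3.94% (3.58 to 4.33). At the border of the rule, 65 P2-only regions had a gap of under 50 bp to a later peak, with a median percentile of 27.1, and 89 P2 peaks overlapped a later peak by under 50 bp, with a median of 29.6. The upper quartiles were 41.9 for these P2-only regions and 52.9 for the overlapping peaks.

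Regions with no P5 or P8 peak within 1 kb numbered 9144, and the highest stood at percentile 75.7. It lay 135 bp from Lsr, a receptor at tricellular junctions (chr7:30957386-30957884, 1.02 kb from a later peak), and its wide input peak did overlap a later one. The next lay away from gene ends: 19.6 kb from Micall2 (chr5:139686827-139687325, percentile 74.98), in a stretch of chromosome 1 with no protein-coding gene within 100 kb (chr1:77920129-77920627, 74.6) and inside Stard13, a regulator of small GTPases (chr5:151218726-151219224, 74.2). Others were inside Plxna4, a semaphorin receptor (chr6:32464001-32464499, 73.6), and 50.8 kb from Tgfbr3, a co-receptor of TGF-beta (chr5:107055493-107055991, 71.9).

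**Figure D3:**
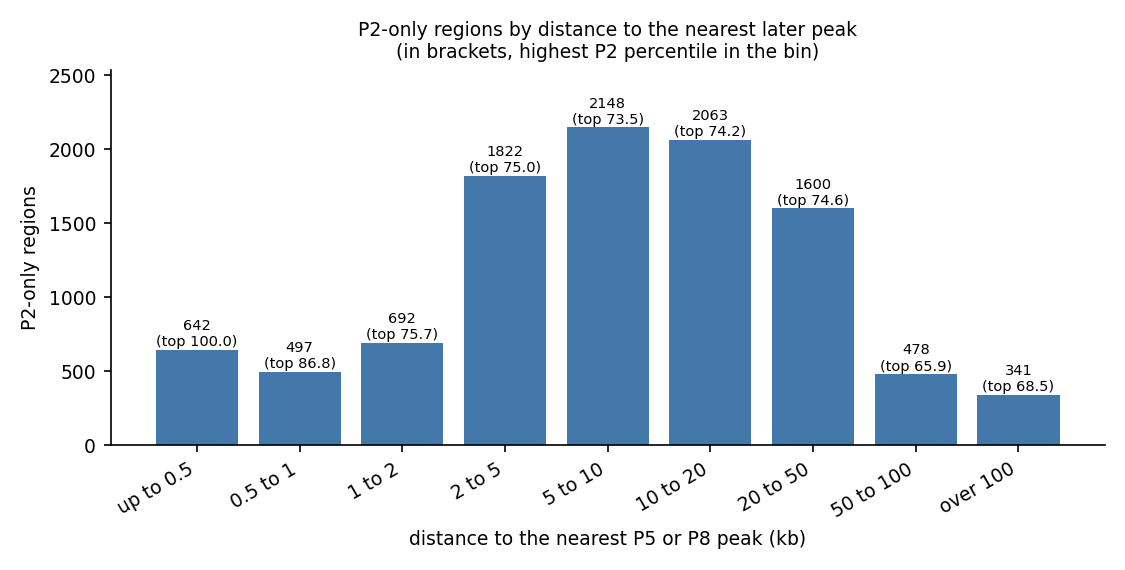
Number of P2-only regions by distance to the nearest P5 or P8 peak (kb). The number and, in brackets, the highest P2 percentile stand above each bar: beyond 2 kb no bin reaches above percentile 74.98.

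By nearest protein-coding gene within 100 kb, 9331 of the 10283 regions were assigned to 5672 genes, of the 15391 genes with a P2 region. In 3628 genes there was 1 P2-only region, in 1855 there were 2 to 4 and in 189 there were 5 or more. Genes with 5 or more were long, with a median of 283 kb against 24.6 kb for all genes with a P2 region. The most were found at Gse1 and Wwox, with 12 P2-only regions each, of 36 and 30 P2 regions. Cux1, a homeodomain transcription factor, had 11 of 22, and only 13 regions were left in the P5 list and 4 in the P8 list. Elmo1, a regulator of Rac in cell engulfment and migration, had 10 of 19, the guidance factor Slit3 10 of 24 and the RNA-binding protein Msi2 10 of 32. Next came Enox1 with 9 of 15, Scfd2 with 9 of 18, and Tiam1, an activator of Rac, with 9 of 20. Camta1, Frmd4a, Rbms3, Sorcs2, Trabd2b and Zfhx3 also had 9 each, of 26 to 31 P2 regions. The tight junction scaffold Tjp1 had 8 of 18, the potassium channel interactor Kcnip1 8 of 14, the tetraspanin Cd82 8 of 15 and Agap1 8 of 21; among genes with 8, those with the fewest P2 regions are named. Against the background of 19.8%, all 20 genes of this group had shares from 29.0% to 60.0%. The genes were chosen by their number of P2-only regions, which favours genes with many regions and also high shares.

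Kcnq1, whose channel carries potassium into the endolymph from strial marginal cells, had 8 P2-only regions of 19, with 13 regions in each later list. Of these 8, 7 lay inside the gene, and their percentiles ran from 9.09 to 39.0. Their distances to a P5 or P8 peak ran from 1.01 to 16.7 kb.

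Some genes had mostly P2-only regions. Among genes with at least 6 P2 regions the highest shares were those of Glrp1 and Rtn4rl2, a relative of the Nogo receptor, with 5 of 6 each. The receptor tyrosine kinase Epha2 and the potassium channel subunit Kcng1 had 6 of 8 each, and the LIM homeodomain factor Lmx1b 7 of 10. Adamts16, Dlk1, Fam222a and Grin2b had 6 of 9 each, and 2700049A03Rik had 4 of 6. Dlk1 is an imprinted fetal growth regulator and Grin2b the NMDA receptor subunit that prevails in early life. At Dlk1 the 6 regions spread from 50.2 kb on one side of the gene to 10.5 kb on the other, at percentiles 9.42 to 52.5, and the later lists held 4 and 3 regions. At Grin2b 1 of the 6 lay 73 bp from the gene (chr6:136173439-136173937) at percentile 16.98.

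In 560 of the 15820 genes with any region, every region was P2-only, so that no region was left at P5 or P8. With 19.8% of all P2 regions P2-only, genes with few regions meet this more readily. Most of the 560 had 1 region, 68 had at least 2 and 12 at least 3. Unc5a, a netrin receptor, had 4. Those with 3 each included C2cd6, Ccdc188, Crabp1, Epha10, Gm39002, Htatip2, Lvrn, Myo15, Neurod6 and Tmem132e. Neurod6 is a neuronal transcription factor. Myo15 is the unconventional myosin that delivers cargo to the tips of hair cell stereocilia, and its regions lay inside the gene at percentiles 9.45, 27.8 and 29.5. Myog, a factor of muscle differentiation, had 2 of 2. Assignment goes by the middle of a region, so a gene without an assigned P5 or P8 region can still be touched by the edge of one.

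P2-only regions also followed one another. A run is a stretch of P2-only regions with no other region between them. The 10283 regions formed 8524 runs. In 7092 of these the run was a lone region, which is 69.0% of the 10283 regions; 260 runs had at least 3, 50 at least 4 and 12 at least 5. The longest had 7. The share of lone regions was 79.0% at P2 and P5, 92.4% at P2 and P8, 84.3% at P5 only and 83.2% at P8 only. It was 85.9% at P5 and P8 and 23.5% at all ages, where the longest run had 22. Run length also depends on the number of regions in a class. At Lmx1b 6 followed one another over 58.6 kb (chr2:33558185-33616742, percentiles 4.60 to 29.7), none within 1 kb of a gene end. At Slc43a1 and Rtn4rl2 there were 6 over 23.5 kb (chr2:84865566-84889079), and inside Wwox 6 over 114 kb (chr8:114803048-114916896). Runs of 5 lay at Inhbb, the activin beta B subunit, over 65.6 kb (chr1:119388601-119454164), and at Hmga2, a chromatin protein of fetal growth, over 163 kb (chr10:120461740-120624653). A run of 5 lay inside Tiam1 over 61.7 kb. Another, over 85.0 kb of chromosome 17, is named in the plot for Six2, which lies 97.8 kb from its first region; the other 4 had no protein-coding gene within 100 kb. The run of 5 at Htr7 spanned 1090 kb (chr19:34993085-36083319). The runs named here were made of weak peaks: their median percentiles ranged from 4.60 at Wwox to 30.0 at Hmga2. The highest peak in any of them was 1 near Inhbb at 59.1.

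**Figure D4:**
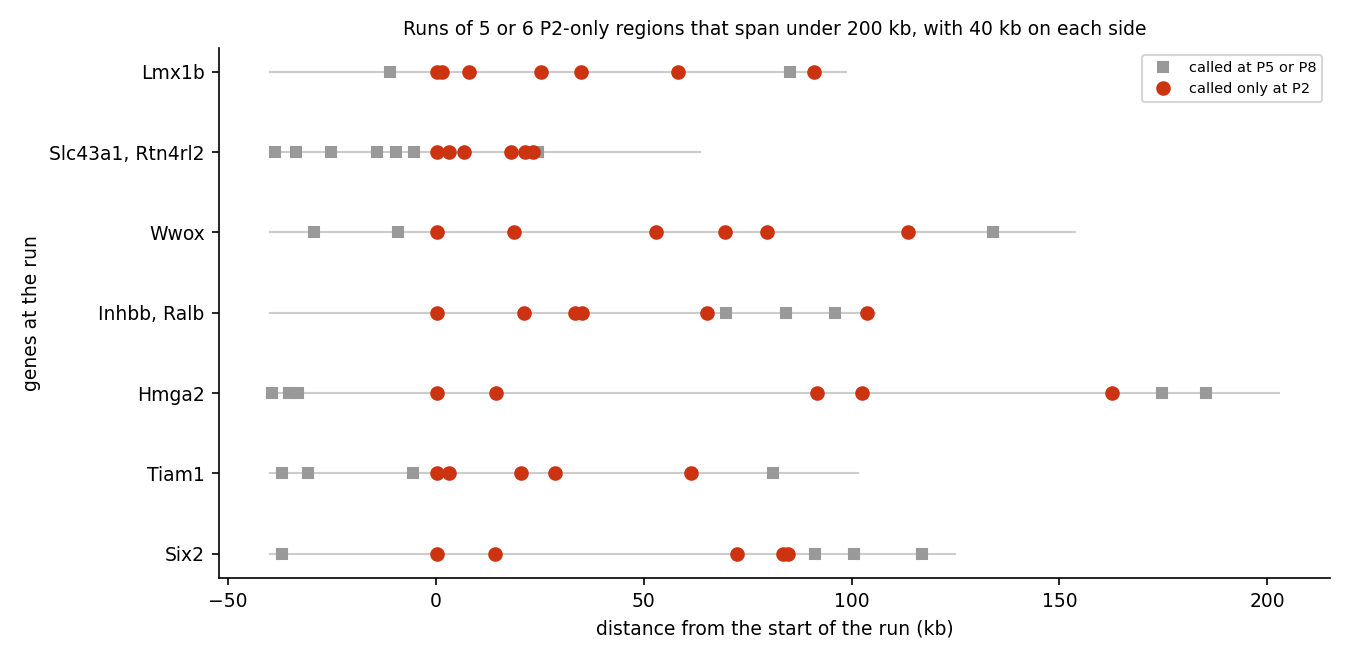
The 7 runs of 5 or 6 P2-only regions named in the text that span under 200 kb, as distance from the start of the run (kb), with 40 kb on each side. Circles are P2-only regions and squares are regions called at P5 or P8; within each run no square occurs.

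Another P2-only region lay within 10 kb of 1611 regions, or 15.7% (14.98 to 16.4). The same measure was 8.81% for P8 only and 36.1% for regions at all ages, and it rises with the number of regions in a class. The fullest group linked in this way over short steps was at Nfasc, a cell adhesion protein of the axon's nodes, with 5 regions over 20.8 kb (chr1:132639275-132660035). Epha2 (8.80 kb), Egfl7 (12.7 kb), Fam222a, Tspan15 with Tacr2, Ccdc188 with Zdhhc8, and Vac14 with Mtss2 had groups of 4. Over windows of 1 Mb the median was 3 P2-only regions. The fullest window, on chromosome 4 at Prdm16 and Megf6, held 23 of its 77 P2 regions (29.9%). Among the highest shares in windows with at least 10 P2 regions were 6 of 11 (54.5%) on X at Hs6st2 and 10 of 19 (52.6%) on chromosome 12 at Dlk1, Begain and Rtl1, imprinted genes in part.

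Gene groups were described by the share of their P2 regions that were P2-only, beside 19.8% for all P2 regions. The groups also differed in the rank and place of their regions: the median P2 percentile of a group's P2 regions (50.1 for all) and the part of them near a gene end (29.4% for all) varied between groups, and their part in the differences was not tested. Groups were 22 lists of cell type and programme genes and 29 families by symbol.

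Genes of excitability stood highest among the larger groups. Of 107 P2 regions of ionotropic glutamate and GABA receptors 38 were P2-only, or 35.5% (27.1 to 44.9), in 20 of 31 genes; Grik4 and Grin2b had 6 each. Of 312 regions of potassium channel genes 100 were, or 32.1% (27.1 to 37.4), in 46 of 81 genes. Their P2 regions ranked low, with medians of 36.3 and 36.8. Counting only regions over 1 kb from gene ends, where the background is 23.6%, the shares were 33.7% and 33.1%. With lists cut to equal length (the top 43878 peaks of each) they were 29.9% and 26.1% beside a background of 14.3%.

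The LIM homeodomain family (Lhx and Lmx) had 18 of 41, or 43.9% (29.9 to 59.0), of which Lmx1b gave 7; without Lmx1b the share was 35.5%. With lists of equal length the family had 8 of 30, or 26.7% (14.2 to 44.4), and the interval covers the 14.3% of all. Cadherins had 30 of 95, or 31.6% (23.1 to 41.5), but with lists of equal length 10 of 71, or 14.1%, beside the 14.3% of all. Genes of extracellular matrix and basement membrane had 61 of 215, or 28.4% (22.8 to 34.7), in 22 of 25 genes. The highest counts were those of Tns1, with 6 of 28, and Tns3, with 6 of 23. They encode tensins, proteins of focal adhesions inside the cell and not of the matrix. Without Tns1 the share of the list was 29.4%. Among collagens Col18a1 had 5 of 16, Col5a1 4 of 12, Col6a3 4 of 8 and Col14a1 4 of 7. All collagens had 71 of 256, or 27.7% (22.6 to 33.5). Eph receptors and ephrins had 33 of 121, or 27.3% (20.1 to 35.8). Hox genes had 9 of 25, or 36.0% (20.2 to 55.5), 7 of the 9 within 1 kb of a gene end. With lists of equal length they had 6 of 21, or 28.6% (13.8 to 50.0), an interval that also covers the 14.3% of all.

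The lists of cochlear cell types in this paragraph ranged from 17.1% to 30.2%. Bone (10.9%), macrophage (7.69%) and erythroid (12.5%) genes, described below, stood lower. Melanocyte and intermediate cell genes had 9 of 42 (21.4%). Fibrocyte and otic mesenchyme genes had 22 of 106 (20.8%) and chondrocyte genes 21 of 95 (22.1%). Genes of Schwann and satellite glia had 19 of 63, or 30.2% (20.2 to 42.4), with 4 at Mbp, a protein of myelin. Hair cell genes had 31 of 119, or 26.1% (19.0 to 34.6): Kcnma1, the large-conductance potassium channel, had 5 of 13, and Otof, the calcium sensor of hair cell synapses, 3 of 7. Cdh23, a component of the tip link, had 3 of 8. P2-only regions were found at 17 of the 29 hair cell genes with a P2 region. Espn had 0 of 4 and Tbx2 0 of 6. Strial marginal cell genes had 29 of 112, or 25.9% (18.7 to 34.7), and 22.6% without Kcnq1. Endothelial and pericyte genes had 23 of 90, or 25.6% (17.7 to 35.4), in 12 of 18 genes, and 21.5% without Erg. Erg had 6 of 11, whereas Vwf had 0 of 9 and Cspg4 0 of 8. Spiral ganglion neuron genes had 29 of 120, or 24.2% (17.4 to 32.6). Supporting cell genes had 32 of 156, or 20.5% (14.9 to 27.5), in 16 of 30 genes. Genes of the ridge or the tectorial membrane had 13 of 76, or 17.1% (10.3 to 27.1), in 6 of 23 genes. Among the latter, Tecta had 3 of 5 and Crabp1 3 of 3, whereas Otogl had 0 of 5 and Col9a1 0 of 8. Apart from that of the Schwann list, every interval given here covers 19.8%, and with lists of equal length the Schwann list had 10 of 50, or 20% (11.2 to 33.0), which covers the 14.3% of all.

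Marker genes of the tissue held open regions in all 3 lists: Myo7a of hair cells held 6, 5 and 3 in order of age, Sox2 of supporting cells 4, 2 and 2, and Tecta 5, 2 and 2. Of these, 2, 2 and 3 were P2-only. Pou3f4 of the otic mesenchyme held 1, 2 and 1 regions, and 0 were P2-only. The connexin genes differed: Gjb2 (connexin 26) had no P2-only region, with 2, 1 and 3 regions, and Gjb6 (connexin 30) had 2, with 3, 3 and 5 regions. The Gjb6 ones lay 25.0 and 27.8 kb from the gene (chr14:57158352-57158850 and chr14:57161121-57161619) at percentiles 3.49 and 40.8, the second 137 bp from a later peak.

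Lists for other tissues that a dissection can hold gave small counts: brain 8 of 32 (25.0%), of which Neurod6 gave 3, and skeletal muscle 7 of 24 (29.2%), 2 of them at Myog. Macrophage genes had 1 of 13 and erythroid genes 1 of 8. Fetal growth genes had 22 of 77, or 28.6% (19.7 to 39.5), in 10 of 17 genes, and the interval covers the 19.8% of all. Dlk1 gave 6 of 9 and Hmga2 6 of 10, whereas Igf1r had 2 of 18 and Arid3b 0 of 5. Without Dlk1 the share of the list was 23.5%. Cell cycle genes had 19 of 92 (20.7%), near the 19.8% of all P2 regions, in 9 of 22 genes. E2f7, a repressor of the cycle, had 3 of 4, whereas Mki67 had 0 of 7 and Ccne1 0 of 7.

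Below the background stood ribosomal protein genes with 11 of 114, or 9.65% (5.47 to 16.5), and zinc finger genes named Zfp with 107 of 789, or 13.6% (11.3 to 16.1). Of their P2 regions 62.3% and 44.9% lay near a gene end, and away from gene ends the shares were 20.9% and 21.1%, close to the 23.6% of all such regions. Thyroid hormone response genes had 9 of 70, or 12.9% (6.91 to 22.7), and bone genes 7 of 64, or 10.9% (5.40 to 20.9), whose intervals cover the background; housekeeping genes had 6 of 40 (15%).

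**Figure D5:**
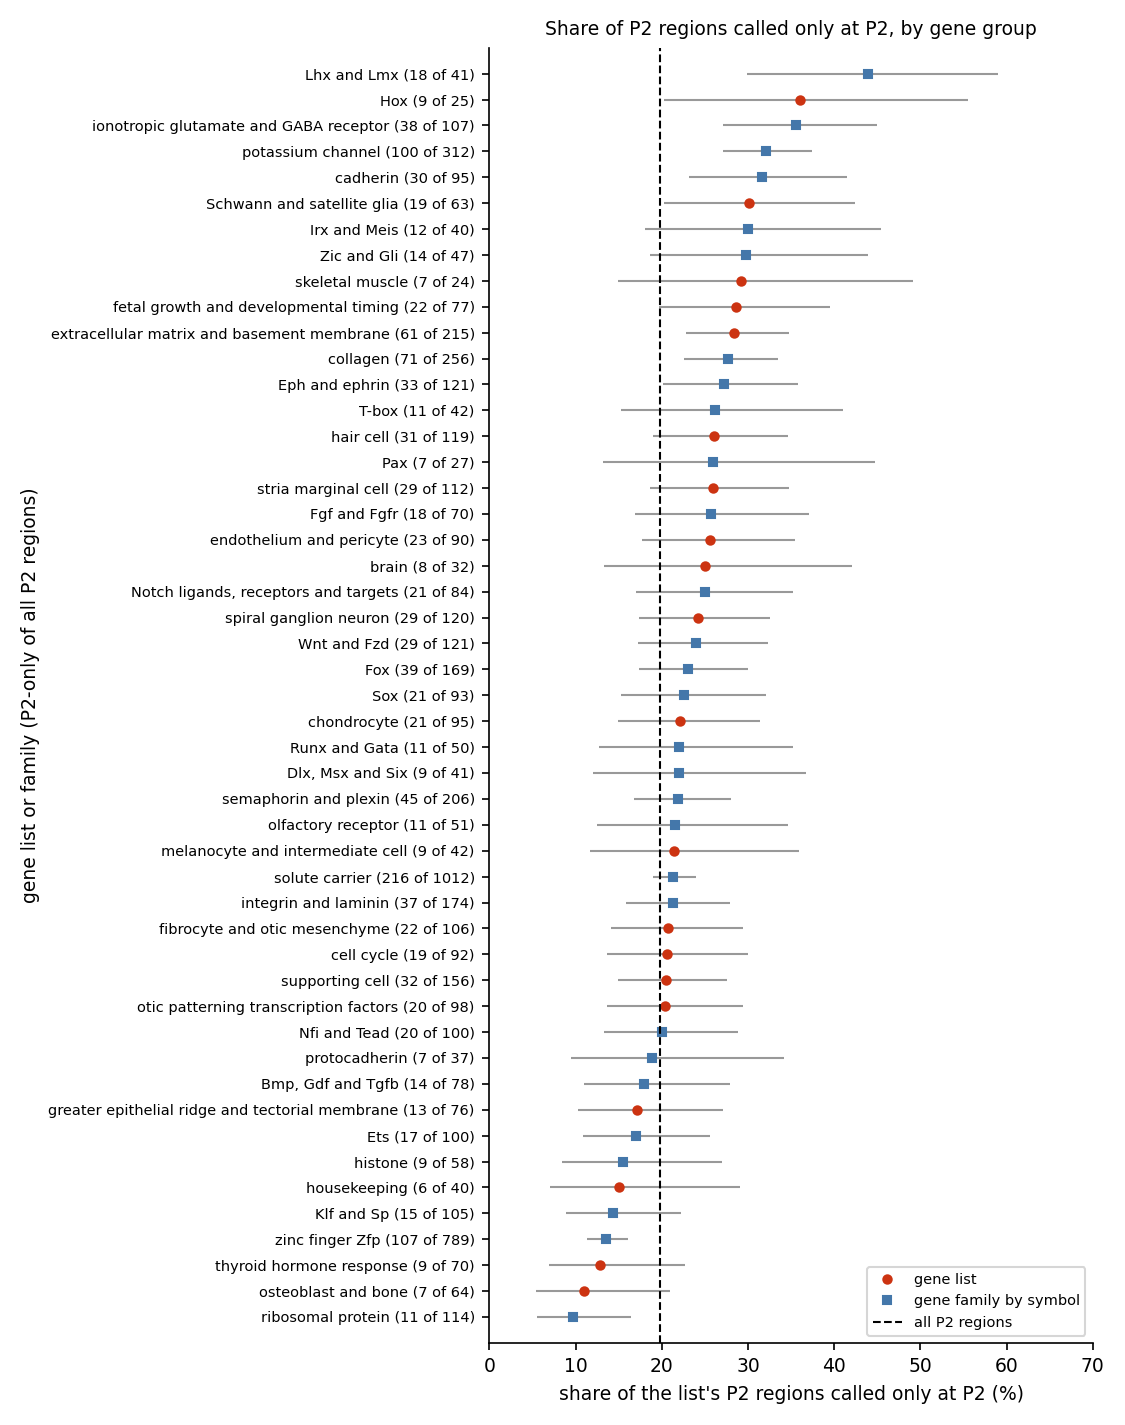
Share of a group's P2 regions that were P2-only (percent, with Wilson 95% intervals), for lists and families with at least 20 P2 regions; the dashed line is the 19.8% of all P2 regions. Shares run from 9.65% for ribosomal protein genes to 43.9% for the Lhx and Lmx family.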

How the data were processed

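ATAC-seq had been run on cochleae of 10 CD1 mice at P2, P5 and P8. Per the submitters' processing notes, Trimmomatic 0.33, Subread 1.4.6-p3 and MACS2 2.1.0 were used with build mm10; for settings, read shifting and pooling, nothing is given in the sources used here. All 3 deposited peak lists have the layout of the irreproducible discovery rate (IDR) method on 2 inputs per age. The authors' ranking value, a −log10 p-value in the deposited lists, is the smaller of the 2 inputs' values; the deposited score is the scaled IDR, at most 0.05. Values served for ranks within 1 list and were not compared between lists. Peaks were 499 bp wide. The lists hold no read counts, so depth is unknown from them, and a deeper library can give a longer list.

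From these, regions, positions, runs, gene assignments and shares with Wilson 95% intervals were computed with Python 3.11.15, numpy 2.4.6, pandas 2.3.3 and scipy 1.17.1. Functions were tested on simulated peaks. A gene end is either end of any gene in a RefSeq table (GRCm38.p6); that table has no exons, so exons, introns and untranslated regions are not distinguished. Starts with strand came from the RefSeq promoter table, which matched 17492 of 21887 protein-coding genes; list genes were matched for 468 of 470 entries. Peak starts were taken to be 0-based and were raised by 1 for printing.

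The regions, lists and families were chosen with earlier results of these data known. Named genes were the 20 with most P2-only regions, the 10 with the highest share among genes with at least 6 P2 regions, those nearest the highest-ranked regions, those with only P2-only regions (at least 3), up to 4 per list with at least 2, those of the longest runs and fullest groups, and Gjb2 and Gjb6. Other genes were named after their values were seen. Some items that the rule names are not reported here. Alternatives were other overlap rules, stricter or equal-length lists, and other distances.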

Additional observations from a re-analysis of the deposited data

How the results depend on the processing

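The number of P2-only regions depended mostly on how far down the P2 list was read. It was 10786 when a later peak had to cover 50% of the P2 peak, 9641 and 9144 when a later peak within 500 bp or 1 kb also counted, and 9878 when overlap of the wide inputs counted. It was 5662 for P2 peaks with an IDR of at most 0.01, 6260 for lists of equal length, 5408 with the P2 list alone cut to 43878 peaks and 503 for the upper 50% of the P2 list. Under these 8 settings, in the same order, the share near a gene end was 16.9%, 14.8%, 14.5%, 14.99%, 17.5%, 17.5%, 17.6% and 26.6%; it was 10.7% with 500 bp and 23.5% with 2 kb taken as near. The share inside protein-coding genes was 56.8% at the stricter IDR, 58.0% counting any overlap, and within its interval otherwise. Regions with another within 10 kb were 16.4%, 14.9%, 14.1%, 15.4%, 9.10%, 9.68%, 8.54% and 0% (0 of 503, upper bound 0.758%), which fewer regions lower by construction, and 7.25% and 34.7% with links of 5 and 25 kb. The median percentile moved beyond the middle 50% of regions only for the upper 50% of the list, to 56.8. Of the 134 named genes' counts, 21 moved by over 1.5 times when peaks within 500 bp counted as shared, 76 with lists of equal length, 83 with the P2 list alone cut, 123 for its upper 50% (104 of them to 0) and 28 when assigned by the nearest gene end; of the 22 lists' counts, 1, 15, 18, 22 (9 of them to 0) and 0 did. The wide-input and 1 kb settings were chosen after seeing the data. Ranking by the signal column was not run, because that column is constant. No paired analysis was possible because each age has 1 list and no values per animal, so leaving out animals was not run either. Depth per animal is unknown, and whether it set the number of weak P2 peaks was not tested.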

Other observations

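Of 1005 microRNA hairpins in the RefSeq table, 57 overlapped a region holding a P2 peak, and 4 of these, or 7.02% (2.76 to 16.7), a P2-only region. The share was 5.57% for promoters and 10.7% for P2 regions near a gene end. The 4 were Mir5103 (percentile 42.9), Mir6339 (52.7, with the nearest P5 or P8 peak 135 kb away), Mir7229 (9.09) and Mir3081 (61.6, with a later peak 386 bp away).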
